A study of Mus musculus with 2 samples.

Results

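The genes described here are 7 precursors of neuropeptides: the opioid precursors Penk and Pdyn, the tachykinin precursors Tac1 and Tac2, and the precursors of neurotensin (Nts), galanin (Gal) and thyrotropin-releasing hormone (Trh). They were chosen by name and are 7 of the 32285 genes in the count tables. On RefSeq's GRCm38.p6, Penk lies at chr4:4133536-4138815, Pdyn at chr2:129686549-129699938, Tac1 at chr6:7555061-7562978, Tac2 at chr10:127724478-127731768, Nts at chr10:102481756-102490418, Gal at chr19:3409915-3414544 and Trh at chr6:92242061-92244650. Their transcripts were counted on the 10x Visium array, in which each barcoded spot captures the RNA above it and molecules are counted by unique molecular identifiers (UMIs). A spot is a small region that can hold several cells. One coronal section came from each of 2 mice. Both mice expressed hM3Dq, an engineered receptor activated by clozapine-N-oxide (CNO), and both were given CNO. Mouse 1 carried the label of a WT C57BL/6J control, and mouse 2 that of a WT CRISPR-Cas9 edited isogenic control. Together they form 1 group (n = 2), and no section without CNO was analysed, so no value here measures an effect of CNO. Sections were 10 µm thick and lay 1.9 mm posterior to bregma, with the injection at 4.6 mm posterior. The labels give neither the promoter that drove hM3Dq, nor ages, nor the injected side. Mouse 1 had 3715 spots under tissue and 30671753 UMIs, and mouse 2 had 3549 spots and 55315952 UMIs.

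Neuropeptides are cut from larger precursors in the secretory pathway by prohormone convertases, trimmed, often amidated, and released from dense-core vesicles to act on G protein-coupled receptors. Penk gives enkephalins, which act on mu and delta opioid receptors, and Pdyn gives dynorphins, which act on the kappa receptor. Tac1 gives substance P and neurokinin A, and Tac2 gives neurokinin B, the main ligand of the receptor encoded by Tacr3. The hypothalamus is rich in such peptides, and the medial habenula is known for neurons that make tachykinins.

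Regions were defined from marker genes that include none of the 7 precursors. A level is given in CPM, the usual scaling of a gene's UMIs by all UMIs of the region, with no further normalization. Hypothalamic spots numbered 325 in mouse 1 and 260 in mouse 2, habenular spots 98 and 79, thalamic spots 941 and 990, hippocampal spots 580 and 574, and cortical spots 489 and 418. All 8 habenular markers and all 9 medial hypothalamic markers were more than 1.5 times as high in their spots as elsewhere in both mice. In lateral hypothalamic spots 5 of 6 were, and among cortical sets layer 2/3 met this for 4 of 5, layer 4 for 2 of 3 and layer 5 for 3 of 5. Spots were placed by these same markers, so high values were largely fixed in advance and are no independent check of the regions. Orexin (Hcrt) and melanin-concentrating hormone (Pmch), both lateral hypothalamic markers, stood at 4828 and 3303 CPM and at 10455 and 17777 CPM in hypothalamic spots of mouse 1 and mouse 2. Spots with hypothalamic, striatal or reticular markers that lay more than 16 spot pitches from the midline, at the lower lateral edge (64 and 162), were kept apart as a ventrolateral corner. Fewer cells of a type and less RNA per cell cannot be told apart in a spot.

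Sequence before the transcription start is shown for Tac1, Tac2, Nts and Trh, whose transcripts the accounts of the habenula, lateral hypothalamus and reticular thalamus turn on. Of the 7 genes, 6 were matched in RefSeq's table on build GRCm38.p6, with 7 start sites since Pdyn has a pair. The 250 bases upstream lie at chr6:7554811-7555060 (plus strand) for Tac1, chr10:127724228-127724477 (plus strand) for Tac2, chr10:102490419-102490668 (minus strand) for Nts and chr6:92244651-92244900 (minus strand) for Trh. Each is written 5′ to 3′, and capitals mark the motif matches named after the sequences; a core on the other strand reads CGTCA.
Tac1: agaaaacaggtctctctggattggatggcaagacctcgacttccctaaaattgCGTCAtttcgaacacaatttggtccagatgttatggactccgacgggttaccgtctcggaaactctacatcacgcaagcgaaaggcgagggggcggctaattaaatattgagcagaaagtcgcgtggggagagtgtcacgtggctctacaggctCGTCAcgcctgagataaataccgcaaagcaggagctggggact
Tac2: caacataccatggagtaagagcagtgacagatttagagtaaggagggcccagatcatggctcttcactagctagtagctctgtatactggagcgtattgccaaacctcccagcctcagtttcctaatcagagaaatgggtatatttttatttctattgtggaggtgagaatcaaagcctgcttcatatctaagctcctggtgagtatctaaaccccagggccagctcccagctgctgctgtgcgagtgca
Nts: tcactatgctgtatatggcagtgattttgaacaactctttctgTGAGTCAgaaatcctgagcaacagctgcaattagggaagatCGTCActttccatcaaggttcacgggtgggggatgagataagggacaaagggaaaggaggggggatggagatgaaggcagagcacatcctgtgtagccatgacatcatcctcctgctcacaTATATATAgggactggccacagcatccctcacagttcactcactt
Trh: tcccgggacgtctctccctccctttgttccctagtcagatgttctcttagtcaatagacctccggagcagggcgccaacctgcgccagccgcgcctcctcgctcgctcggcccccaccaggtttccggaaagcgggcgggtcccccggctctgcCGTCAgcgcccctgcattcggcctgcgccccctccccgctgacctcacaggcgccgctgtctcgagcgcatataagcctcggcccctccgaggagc

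Both strands were searched for the cAMP response element TGACGTCA, its shorter core TGACG, the AP-1 site TGANTCA and the TATA boxes TATAAA and TATATA. The core is contained in the full element. Tac1 held 2 cores, whose matches began 197 and 43 bases before the start. Trh held 1 that began 96 bases before it and Nts 1 that began 166 bases before it. Nts also held an AP-1 match that began 207 bases before the start and 2 overlapping TATATA matches at 45 and 43 bases. No motif of these 5 was found in the window of Tac2, of Gal or of either Pdyn start. Of all 32851 promoters in the table, 17.8% held the core, 1.55% the full element, 6.75% the AP-1 site, 12.4% TATAAA and 5.25% TATATA. A match describes letters only, and no peak or binding was measured.

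In hypothalamic spots all 7 precursors stood above the thalamus, the large dorsal neighbour made mainly of relay neurons. Levels were tested on UMIs summed per mouse and region with edgeR's quasi-likelihood test (n = 2 mice, mouse as a block), with Benjamini-Hochberg adjustment over 13428 genes and a threshold of 0.05. Of the 7 genes 7 passed as higher, against a background of 24.1% of all genes tested higher and 24.6% lower. The median log2 difference was 4.80 for the 7 genes and -0.01 over all genes. Each of the 7 would also have passed the filter on low counts on its thalamic level alone.

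**Figure D1:**
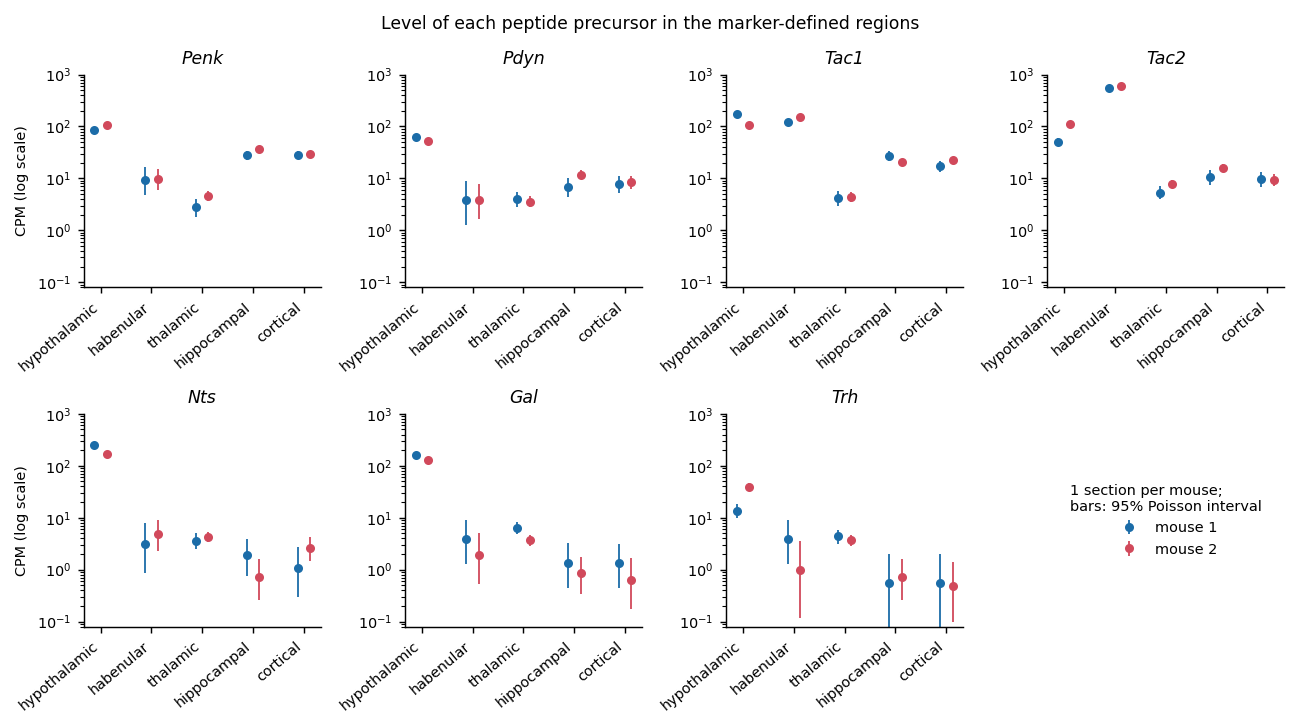
Level of each precursor (CPM, log axis) in the 5 broad regions; points are single sections of mouse 1 and mouse 2 and bars are exact 95% Poisson intervals of the count. Hypothalamic spots have the highest mean for all genes but Tac2, though for Tac1 mouse 2 has the reverse order (109 against 153 CPM in habenular spots), and Tac2 reaches 556 and 596 CPM in habenular spots.

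Nts, whose peptide acts on dopamine circuits and feeding, stood at 252 CPM in mouse 1 and 169 CPM in mouse 2 in hypothalamic spots, a mean of 211 ± 59.0 (SD, n = 2). Its thalamic levels were 3.61 and 4.29 CPM, and the log2 difference was 5.75 (SE 0.14, adjusted p = 5.28e-32, edgeR). Gal stood at 163 and 129 CPM against 6.27 and 3.72 CPM, a log2 difference of 5.07 (SE 0.12, adjusted p = 5.58e-32, edgeR). In both genes the 2 mice lay far above either thalamic value, and mouse 1 was the higher of the pair in hypothalamic spots. These SEs rest mainly on a spread pooled over genes, so the values of the single mice show better how far the sections differ.

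Penk stood at 86.5 and 107 CPM in hypothalamic and at 2.76 and 4.55 CPM in thalamic spots, a log2 difference of 4.80 (SE 0.14, adjusted p = 7.61e-30, edgeR). Pdyn stood at 62.8 and 51.9 CPM against 3.93 and 3.57 CPM, a log2 difference of 4.08 (SE 0.17, adjusted p = 1.8e-23, edgeR). Between the mice the opioid precursors had the smallest SDs of the 7 genes in hypothalamic spots, 14.6 and 7.73 CPM around means of 96.8 and 57.3 CPM.

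The tachykinins differed between the mice in opposite directions. Tac1 stood at 177 CPM in mouse 1 and 109 CPM in mouse 2, against 4.15 and 4.44 CPM in thalamic spots, a log2 difference of 5.13 (SE 0.17, adjusted p = 2.03e-27, edgeR). Tac2 stood at 50.6 CPM in mouse 1 and 112 CPM in mouse 2, against 5.32 and 7.80 CPM, a log2 difference of 3.76 (SE 0.16, adjusted p = 1.14e-23, edgeR). The groups of values did not overlap in either gene. The share of all genes without overlap is not given, so this describes the values only.

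Trh, which starts the hormonal axis to the thyroid when made in the hypothalamus, was the most uneven. It stood at 13.6 CPM (39 UMIs) in mouse 1 and 39.5 CPM (141 UMIs) in mouse 2, against 4.36 and 3.72 CPM in thalamic spots. The log2 difference was 2.93 (SE 0.25, adjusted p = 2.08e-13, edgeR), with 1.73 in mouse 1 alone and 3.31 in mouse 2 alone. The sections also differed in other hypothalamic peptides: Oxt (oxytocin) stood at 712 and 0.841 CPM and Avp (vasopressin) at 218 and 6.73 CPM in hypothalamic spots of mouse 1 and mouse 2. The part of this difference between sections in the levels of the 7 genes was not tested.

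Against cortical spots the hypothalamic levels were higher for 7 of 7 genes as well, where 17.6% of all genes were higher and 18.7% lower. Cortical levels of Nts, Gal and Trh were each below the count filter, so that these 3 entered the test through regions where they are higher and had to differ; the count of 7 is no support for them. The other 4 differed by a log2 of 1.77 (Penk, adjusted p = 1.1e-16), 2.81 (Pdyn, adjusted p = 1.06e-16), 2.81 (Tac1, adjusted p = 7.72e-19) and 3.17 (Tac2, adjusted p = 1.46e-18, all edgeR). Penk had the smallest of these differences: its cortical levels were 28.4 and 29.8 CPM, a mean of 29.1 ± 0.99 (SD, n = 2).

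How low the levels outside the hypothalamus are can be read beside Pmch and Hcrt, whose cell bodies lie in the hypothalamus. Cortical Pmch was 0.142% of the hypothalamic level in mouse 1 and 0.0695% in mouse 2, and cortical Hcrt was 0.269% and 0.136%. Gal had 0.829% and 0.498% of its hypothalamic level in cortical spots (5 and 4 UMIs), and Nts had 0.429% and 1.52% (4 and 16 UMIs). In thalamic spots Pmch had 1.88% and 1.40%, Hcrt 1.32% and 0.823%, Nts 1.43% and 2.54%, and Gal 3.84% and 2.88%. Penk had 32.9% and 27.9% of its hypothalamic level in cortical spots. The thalamic shares of Nts thus overlapped those of Pmch but lay above those of Hcrt. Those of Gal lay above those of both Pmch and Hcrt. Neither Nts nor Gal is read here as expressed in the thalamus.

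The share of spots with at least 1 UMI gave the same picture after each spot was thinned to 3000 UMIs. Gal was found in 35.8% and 26.3% of 318 and 259 hypothalamic spots deep enough, against 0.211% and 0.239% of cortical spots (475 and 418). Unthinned shares were 56.3% and 54.6% against 1.02% and 0.957%. For Nts the thinned shares were 26.7% and 32.8% in hypothalamic spots (52.0% and 67.7% unthinned).

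**Figure D2:**
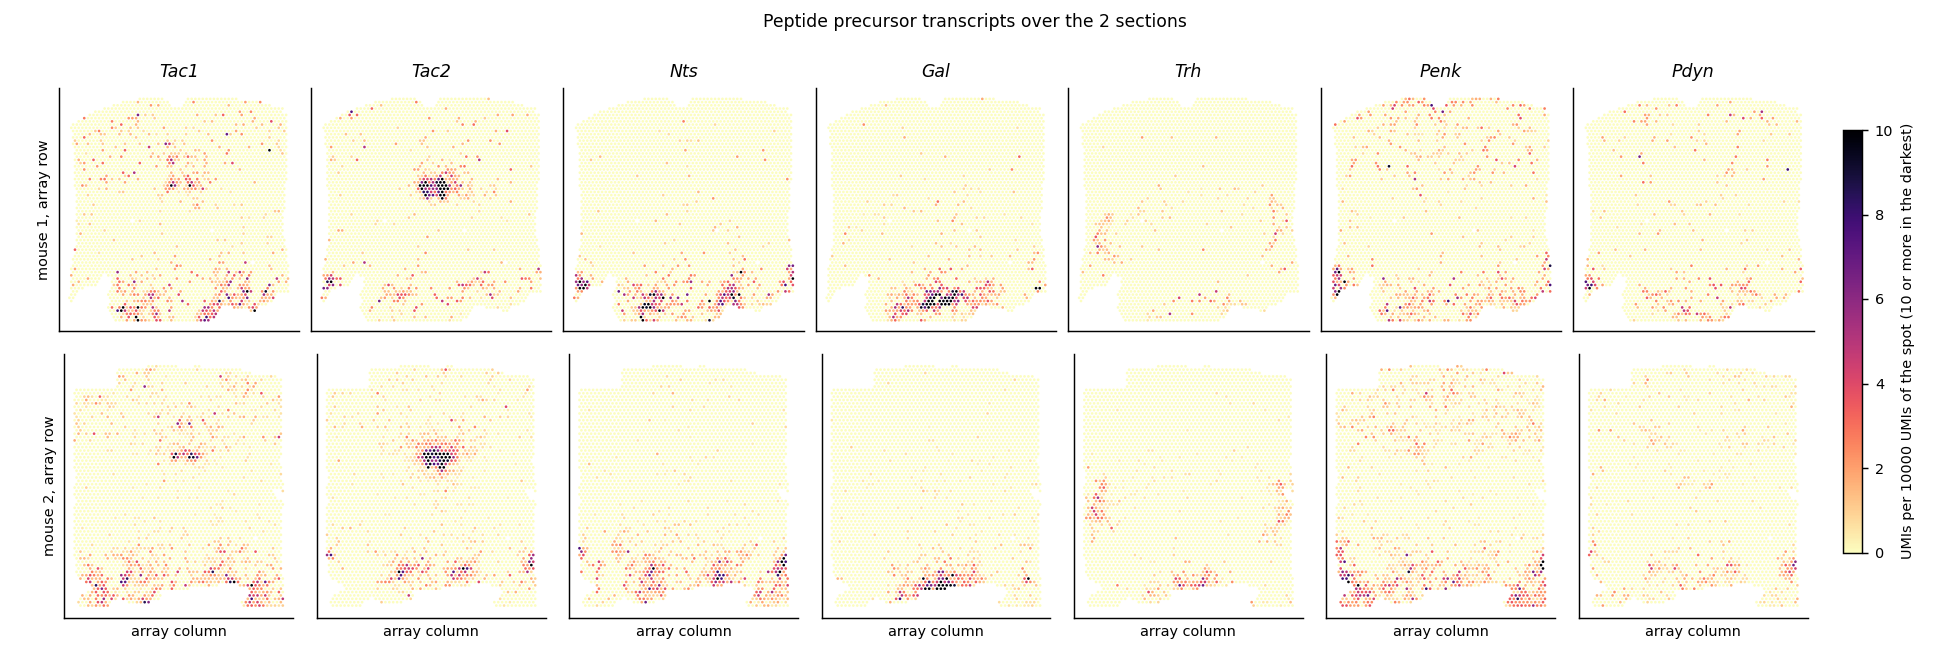
UMIs of each precursor per 10000 UMIs of the spot, in all spots used of mouse 1 (top) and mouse 2 (bottom), in array rows and columns. Tac2 fills the habenula, Nts forms lateral patches and Gal a midline patch in the hypothalamus, and Trh marks a band at each side.

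Within the hypothalamus the precursors followed different maps. Spots led by lateral markers (163 and 170) were compared with spots led by medial markers (162 and 90) in a fit over 20 fine regions and 12879 genes, where 0.481% of all genes were higher in lateral spots and 0.349% lower. Nts and Tac2 passed as higher in lateral spots and Gal and Trh as lower, while Penk, Pdyn and Tac1 did not pass. The median log2 difference of the 7 genes was -0.16, and that of all genes was -0.0037.

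Nts stood at 322 and 192 CPM in lateral and at 176 and 110 CPM in medial spots, a log2 difference of 0.84 (SE 0.17, adjusted p = 0.00326, edgeR) that was 0.87 and 0.84 in the single mice. Lateral spots were higher within each mouse, although lateral spots of mouse 2 and medial spots of mouse 1 were close. Tac2 stood at 70.9 and 126 CPM in lateral and at 28.4 and 76.9 CPM in medial spots, a log2 difference of 1.01 (SE 0.25, adjusted p = 0.0224, edgeR). With each library thinned to the shallower mouse its adjusted p was 0.06.

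Trh was higher in medial spots of both mice, at 24.1 and 92.9 CPM against 4.01 and 18.7 CPM in lateral spots. Its log2 difference was -2.13 (SE 0.31, adjusted p = 3.88e-06, edgeR). In mouse 1 the lateral spots held 6 Trh UMIs, below the count filter of this fit. Gal stood at 160 and 264 CPM in medial and at 167 and 76.4 CPM in lateral spots, a log2 difference of -0.86 (SE 0.19, adjusted p = 0.00683, edgeR). That call rests on mouse 2: the difference was -1.73 in mouse 2 and 0.06 in mouse 1. DESeq2 called none of the 7, with no adjusted p for Trh and 0.785 for Nts, 0.673 for Tac2 and 0.514 for Gal. Without the mouse block only Trh was called (adjusted p = 0.028 in edgeR, against 0.498 for Nts, 0.406 for Tac2 and 0.571 for Gal).

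Distance from the midline, taken as a description with no test, matched the lateral and medial calls in part. Gal was highest within 4 spot pitches of the midline in both mice, at 265 CPM in mouse 1 and 423 CPM in mouse 2, and lowest at 12 to 16 pitches, at 118 and 22.7 CPM. Nts ran the other way: it stood at 40.8 and 39.1 CPM within 4 pitches and peaked at 8 to 12 pitches, at 403 and 238 CPM, before 277 and 72.7 CPM at 12 to 16 pitches. In the spots at 8 to 12 pitches Hcrt stood at 6663 and 5681 CPM. Tac2 had no steady rise outward: from the midline out it stood at 20.4, 29.2, 79.0 and 52.5 CPM in mouse 1 and at 66.6, 145, 128 and 22.7 CPM in mouse 2, where the outermost bin was the lowest. Tac1, which did not pass between lateral and medial spots, was lowest within 4 pitches, at 43.4 and 55.1 CPM, and highest at 12 to 16 pitches, at 211 and 175 CPM. Trh peaked within 4 pitches in mouse 2, at 142 CPM (62 UMIs), where mouse 1 had 2 UMIs and 5.10 CPM. Penk and Pdyn kept no gradient shared by the mice: within 4 pitches Penk stood at 40.8 CPM in mouse 1 and 133 CPM in mouse 2.

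**Figure D3:**
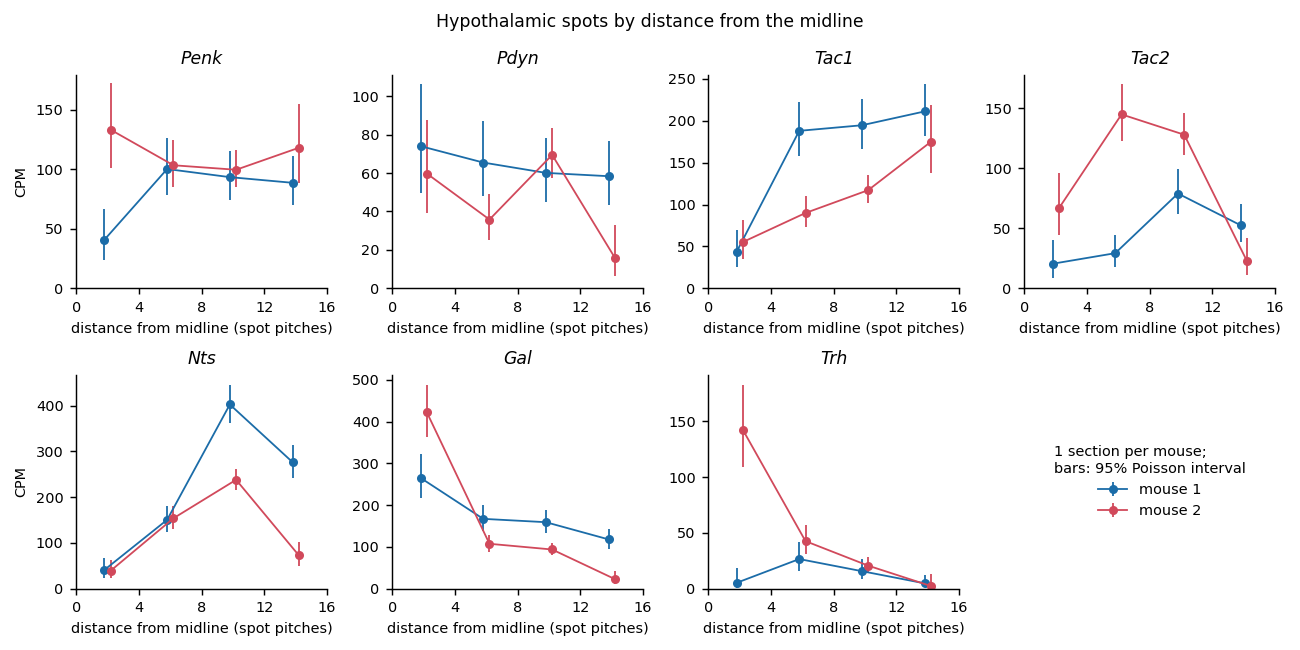
CPM of each precursor in hypothalamic spots by distance from the midline, in 4 bins of 4 spot pitches; points are mouse 1 and mouse 2 and bars are exact 95% Poisson intervals. Gal is highest in the innermost bin and Nts at 8 to 12 pitches in both mice, while Trh has an inner peak only in the section of mouse 2.

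Correlations over hypothalamic spots, given with no p because spots of a section share their library and depth, ran below 0.5 for every pair of precursors in both mice. The highest was Gal with Trh in mouse 2 (r = 0.49 over 260 spots), which was 0.09 in mouse 1 over 325 spots. Tac1 with Nts reached 0.40 in mouse 1 and 0.20 in mouse 2. With Hcrt, Pdyn had 0.20 and 0.35, Tac2 0.28 and 0.31 and Nts 0.29 and 0.27. In counts as sparse as these, such weak values are no finding.

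Ependyma, the lining of the ventricles, was split by place. Ependymal spots nearer to hypothalamic than to habenular spots (34 and 19) had 645 and 489 CPM of Gal, against 5.19 and 5.04 CPM in those nearer to the habenula (24 and 32). Tac2 had the opposite split, at 26.9 and 62.8 CPM near the hypothalamus and 358 and 469 CPM near the habenula. Their whole-class levels, 191 ± 131 CPM for Gal and 302 ± 124 CPM for Tac2, therefore join unlike places.

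In the habenula, the epithalamic relay from limbic forebrain to midbrain, both tachykinin precursors were high. Habenular spots held 52.1% of all Tac2 UMIs on average. Tac2 stood at 556 and 596 CPM, a mean of 576 ± 27.9 (SD, n = 2), against 5.32 and 7.80 CPM in thalamic spots. The log2 difference was 6.31 (SE 0.13, adjusted p = 1.46e-34, edgeR). Tac1 stood at 122 and 153 CPM against 4.15 and 4.44 CPM, a log2 difference of 4.87 (SE 0.19, adjusted p = 1.51e-24, edgeR). Both genes were higher in each mouse, and the mice lay close together.

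Of the 7 genes 3 passed as higher and none as lower in habenular against thalamic spots, with 18.1% of all genes higher and 20.2% lower. Beside the tachykinins this was Penk, at 9.30 and 9.74 CPM against 2.76 and 4.55 CPM, a log2 difference of 1.17 (SE 0.31, adjusted p = 0.00213, edgeR) that rests on 12 and 20 habenular UMIs. The 4 that did not pass had adjusted p-values of 0.948 (Pdyn), 0.895 (Nts), 0.102 (Gal) and 0.194 (Trh), with habenular levels of at most 4.87 CPM in either mouse. After thinning, Tac2 was found in 42.9% and 60.8% of habenular spots (73.5% and 89.9% unthinned), against 2.95% and 4.31% of cortical spots.

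The habenula borders the ventricle, and markers of its lining moved with it. The 5 ependymal markers summed to 268 and 231 CPM in habenular and to 21.5 and 21.0 CPM in thalamic spots, and the 6 choroid plexus markers to 1578 and 1225 CPM against 441 and 325 CPM. Their part in the tachykinin levels was not tested; choroid plexus spots themselves had 45.6 ± 17.8 CPM of Tac2.

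The tachykinins were not placed alike in the habenula. Spots above the median row of the habenula, nearer the cortex, held 223 CPM of Tac1 in mouse 1 and 366 CPM in mouse 2, against 32.2 and 46.1 CPM below it. The ratio of upper to lower was 6.93 (95% interval 4.39 to 11.4) and 7.93 (5.99 to 10.6). Tac2 was also higher above, at 790 and 903 CPM against 349 and 441 CPM, with ratios of 2.26 (1.93 to 2.65) and 2.05 (1.83 to 2.29). In each mouse the intervals of Tac1 and Tac2 did not overlap. The following genes lie outside the rule for named genes and were chosen after values were seen. Gng8, a habenular marker, had ratios of 2.70 and 2.31, and Gpr151, another habenular marker, 0.834 and 0.847. Slc5a7, the choline transporter of cholinergic neurons, had 1.04 in mouse 1 and 0.365 in mouse 2. These intervals cover counting error only.

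**Figure D4:**
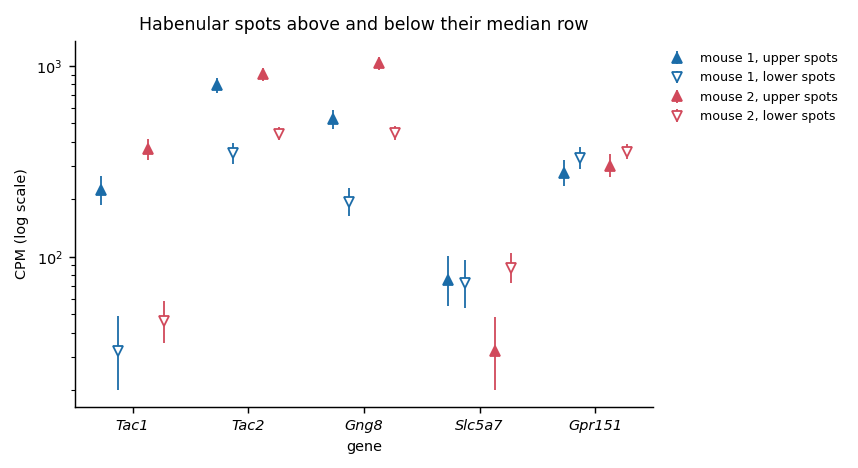
CPM (log axis) of Tac1, Tac2 and 3 other genes in habenular spots above (filled) and below (open) their median row, in mouse 1 and mouse 2; bars are exact 95% Poisson intervals. The gap between upper and lower spots is widest for Tac1 in both mice.

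Of the habenular spots 38 in mouse 1 and 37 in mouse 2 held UMIs of both tachykinins, 34 in each mouse held Tac2 without Tac1, and 8 and 3 held Tac1 without Tac2. Image left and right habenular spots had like Tac2 levels, at 519 and 583 CPM in mouse 1 and 597 and 595 CPM in mouse 2.

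Trh had its highest mean outside the 5 broad regions. Spots with markers of the reticular thalamus and zona incerta, GABAergic nuclei at the lateral and lower edge of the thalamus, held 43.8% of its UMIs on average. They stood at 60.8 CPM (115 UMIs in 179 spots) in mouse 1 and 87.4 CPM (236 UMIs in 167 spots) in mouse 2, a mean of 74.1 ± 18.8 (SD, n = 2). Medial hypothalamic spots came next, at 58.5 ± 48.6 CPM, and the ranges of the 2 mice overlapped, so this order is not beyond their spread. Relay thalamic spots beside them stood at 4.05 ± 0.43 CPM. Of the 20 spots with most Trh, 13 in mouse 1 and 14 in mouse 2 were reticular or incertal. The 6 other precursors stood at 3.31 to 14.3 CPM there.

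**Figure D5:**
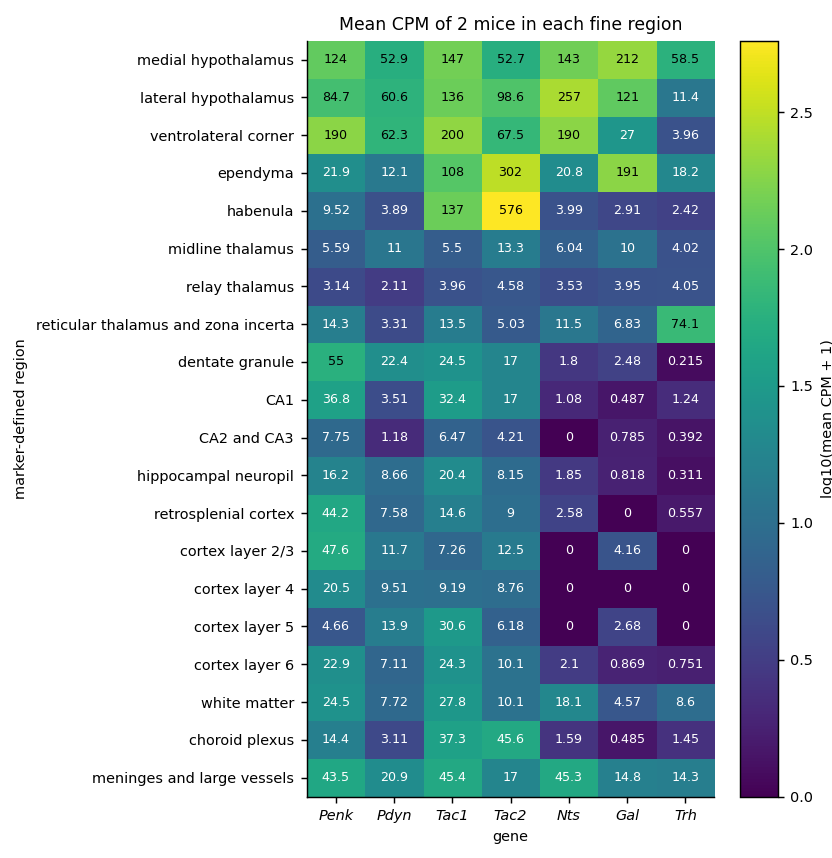
Mean CPM of 2 mice for each precursor (columns) in 20 fine regions (rows), coloured by log10(mean CPM + 1). The brightest cells are Tac2 in the habenula and in ependyma, Nts in lateral and Gal in medial hypothalamus, while Trh peaks in the reticular thalamus and zona incerta.

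Hippocampus and cortex were compared next. Hippocampal Penk stood at 28.2 and 36.2 CPM and cortical Penk at 28.4 and 29.8 CPM, a log2 difference of 0.17 (SE 0.13, adjusted p = 0.373, edgeR). None of the 7 genes passed in hippocampal against cortical spots, where 11.8% of all genes were higher and 11.9% lower; at an unadjusted p under 0.05 there was 1, Tac2 (log2 difference 0.54, SE 0.24, adjusted p = 0.101). Nts, Gal and Trh were below the count filter in both regions, so the count rests on the other 4 genes. DESeq2 called none of the 7. Leiden clusters named by the same markers called Tac2 (log2 difference 1.08, adjusted p = 0.000678), as did the fit without a count filter (adjusted p = 0.047).

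Dentate granule spots, which hold the densely packed cells that send mossy fibres to CA3, stood above the CA pyramidal layers for both opioid precursors. Penk stood at 50.6 and 59.4 CPM in dentate spots, at 34.0 and 39.6 CPM in CA1 and at 5.29 and 10.2 CPM in CA2 and CA3. Against the mean of the CA regions the log2 difference was 1.65 (SE 0.23, adjusted p = 8.05e-08, edgeR). Pdyn stood at 15.1 CPM (11 UMIs) and 29.7 CPM (69 UMIs), against 3.78 and 3.24 CPM in CA1 and 0 and 3 UMIs in CA2 and CA3. Its log2 difference was 3.38 (SE 0.40, adjusted p = 4.57e-10, edgeR), and 3.02 in each mouse alone with a prior count of 2. Pdyn was below the count filter of this fit in all CA spots. It entered the test through regions where it is higher, dentate spots among them, so its call is no support. Dentate values lay above the CA values of both mice in both genes, which describes the values only. Dynorphin is a known peptide of mossy fibres.

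Of the 7 genes 3 passed as higher in dentate spots, with 6.26% of all genes higher and 6.36% lower, though the count is no support for Pdyn. Beside Penk and Pdyn this was Tac2, with a log2 difference of 1.45 (SE 0.48, adjusted p = 0.0306, edgeR) that rests on mouse 2. It stood at 25.8 CPM (60 UMIs) there and at 8.21 CPM (6 UMIs) in mouse 1, where the difference was -0.08. It did not pass with DESeq2 (adjusted p = 0.314), without the mouse block (0.15) or after thinning (0.388). Tac1 stood at 28.7 and 20.2 CPM in dentate and 35.5 and 29.2 CPM in CA1 spots (adjusted p = 0.133 against the CA mean). The CA regions themselves differed: CA2 and CA3 had 7.75 ± 3.47 CPM of Penk and 6.47 ± 5.82 CPM of Tac1, below the CA1 means of 36.8 ± 3.93 and 32.4 ± 4.48 CPM.

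Left and right dentate spots on the image were compared because the design speaks of an ipsilateral side, although the labels do not say which image side that is. Only 4 of the 7 genes passed the count filter and none passed the test, with 0.072% of 8335 genes higher on the left and 0.048% lower; at an unadjusted p under 0.05 there was 1 in edgeR, Penk. DESeq2 called none of the 4 either. Penk stood at 52.2 and 71.5 CPM on the left and at 49.1 and 47.6 CPM on the right, a log2 difference of 0.50 (SE 0.25, adjusted p = 0.93, edgeR). Pdyn went opposite ways in the mice, with left over right ratios of 0.224 (2 and 9 UMIs) and 2.05 (46 and 23 UMIs).

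In the cortex the mean level of Penk differed by layer, given as a description with no test. Layer 2/3 had only 80 and 29 spots and layer 4 only 34 and 27. The SDs of 2 mice do not show counting error. It stood at 47.6 ± 10.3 CPM in layer 2/3 and 44.2 ± 6.77 CPM in retrosplenial cortex, which overlapped. Layer 6 had 22.9 ± 4.28 CPM, layer 4 had 20.5 ± 8.17 CPM, and layer 5 had 0 and 4 UMIs. Layers 4 and 6 overlapped, and both lay below layer 2/3 in each mouse. Pdyn had means from 7.11 ± 2.45 CPM in layer 6 to 13.9 ± 6.76 CPM in layer 5, and the layers rest on at most 17 UMIs a mouse. Tac1 in layer 5 was 12.1 CPM (4 UMIs) in mouse 1 and 49.0 CPM (21 UMIs) in mouse 2, so that the mice differed.

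Most receptors for these and related peptides had few UMIs, apart from Ntsr2, with 3553 and 6465 UMIs in a section, and the nociceptin receptor Oprl1, with 1089 and 2053. Of 14 receptor genes 7 passed the count filter in the broad fit. Tacr2 had no UMI in either section, which allows at most 0.0978 and 0.0542 CPM by counting error, and Oprm1, the mu receptor, had 14 and 32 UMIs in a whole section. In hypothalamic against thalamic spots the 7 tested receptors were all higher, where 24.1% of all genes were higher and 24.6% lower. Trhr, Tacr3 and Oprk1 reached the filter of 2.72 CPM in both mice in hypothalamic spots alone, so that they had to differ once tested and the count is no support for them. Ntsr1 (0.638 and 0.723 CPM) and Tacr1 (1.17 and 0.827 CPM) were below it in thalamic spots, so the count is no support for these either. Tacr1 was also below it in cortical spots (0.813 and 0.642 CPM). Trhr, the receptor of thyrotropin-releasing hormone, stood at 10.5 and 10.7 CPM against 0.106 and 0.413 CPM (log2 difference 5.16, SE 0.44, adjusted p = 1.27e-13, edgeR). Ntsr1 differed by 4.13 (SE 0.37, adjusted p = 8.71e-13) and Tacr3, the neurokinin B receptor, by 3.26 (SE 0.27, adjusted p = 1.05e-13). Against cortical spots 7 of 7 were higher too, where 17.6% of all genes were higher and 18.7% lower. The largest differences were those of Tacr3 (6.53), Trhr (3.91) and Oprk1, the dynorphin receptor (3.37), the same 3 genes that the filter kept through hypothalamic spots, and their cortical counts were between 0 and 6 UMIs a mouse.

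In habenular spots Tacr1, the substance P receptor, was higher, as was its ligand's precursor Tac1. Tacr1 stood at 34.9 and 39.9 CPM in habenular and at 1.17 and 0.827 CPM in thalamic spots, a log2 difference of 5.17 (SE 0.31, adjusted p = 4.11e-18, edgeR). Tacr3, the receptor of the Tac2 product, had 2 UMIs in each mouse there (1.55 and 0.974 CPM). In that comparison 3 of the 7 tested receptors were higher, 1 lower and 3 did not pass, with 18.1% of all genes higher and 20.2% lower. Tacr1 and Trhr were below the count filter in thalamic spots, so the count is no support for them. Trhr was below it in habenular spots too. Its log2 difference of 2.75 (adjusted p = 0.00512, edgeR) rests on 3 and 5 habenular and on 1 and 8 thalamic UMIs. Ntsr2, also made by astrocytes, differed by -0.67 (adjusted p = 1.72e-06, edgeR).

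In hippocampal against cortical spots 1 of 7 was lower, Ntsr1 (log2 difference -1.22, SE 0.37, adjusted p = 0.0125, edgeR), and 6 did not pass. Of all genes 11.8% were higher and 11.9% lower. Hippocampal Ntsr1, at 2.46 and 2.53 CPM, was below the count filter. In dentate against CA spots 1 of 7 was higher, Tacr1, where 6.26% of all genes were higher and 6.36% lower. Tacr1 had 8 UMIs in dentate and none in CA spots of both mice together. The dentate rate was 5.29-fold a floor of 3 counts over the CA spots, with no allowance for counting error in the 8 UMIs. The 8 were 5 in mouse 1 and 3 in mouse 2. Dentate and CA levels of Tacr1 were both below the count filter of this fit, so it entered through other regions and its call is no support. No receptor passed between lateral and medial hypothalamic spots (0 of 7 in edgeR) or between dentate sides (0 of 2). The most abundant, Ntsr2, differed there by a log2 of 0.02 (adjusted p = 0.997) and -0.26 (adjusted p = 0.996).

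Genes of peptide processing and breakdown were taken next; they include Scg5, a chaperone, and Pcsk1n, a convertase inhibitor, beside 7 enzymes. In hypothalamic against thalamic spots 6 of 9 were higher, 2 lower and 1 did not pass (median log2 difference 1.07). Of all genes 24.1% were higher and 24.6% lower in that comparison. Pcsk1, a prohormone convertase, stood at 59.3 and 41.8 CPM against 7.65 and 6.92 CPM (log2 difference 2.92, SE 0.15, adjusted p = 1.68e-20, edgeR). Qpct, the glutaminyl cyclase that forms the pyroglutamate end found on thyrotropin-releasing hormone and neurotensin, differed by 2.58 (SE 0.15, adjusted p = 5.82e-19). Mme, the peptidase neprilysin, differed by 1.75 (SE 0.34, adjusted p = 2.93e-05, edgeR). Its thalamic levels, 1.91 and 1.96 CPM, were below the count filter, so its call is no support. The convertase Pcsk2 and the carboxypeptidase Cpe were the lower ones, by -1.10 and -0.78, and are named after their values were seen.

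In habenular against thalamic spots 6 of these 9 genes were higher, 1 lower and 2 did not pass, with 18.1% of all genes higher and 20.2% lower. Mme, which cleaves tachykinins and enkephalins, stood at 27.9 and 33.6 CPM against 1.91 and 1.96 CPM (log2 difference 3.88, SE 0.26, adjusted p = 2.79e-16, edgeR). Both thalamic values were below the count filter, so this call is no support either. Pcsk1 differed by 2.60 (SE 0.18, adjusted p = 7.73e-16) and Pam, which amidates peptide ends, by 1.41 (SE 0.10, adjusted p = 8.46e-16). Against cortical spots the hypothalamus had 4 higher, 3 lower and 2 that did not pass, with 17.6% of all genes higher and 18.7% lower. Trhde, which degrades thyrotropin-releasing hormone, was lower by -1.85 (SE 0.22, adjusted p = 3.59e-09, edgeR). Qpct was higher (adjusted p = 2.06e-09, edgeR), as was Mme (adjusted p = 0.00772, edgeR). Cortical Mme, at 2.44 and 2.57 CPM, was below the count filter, so its call is no support. In hippocampal against cortical spots 1 was higher (Cpe, 0.44) and 5 lower, led by Pcsk1 (-1.34, adjusted p = 4.44e-08, edgeR) and Qpct (-0.51, adjusted p = 0.0258, edgeR). Of all genes 11.8% were higher and 11.9% lower there.

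In dentate against CA spots 3 of the 9 processing genes were lower and none higher: Cpe (-0.84, adjusted p = 9.08e-08), Scg5, the chaperone of Pcsk2 (-0.68, adjusted p = 1.41e-05), and Pcsk2 (-0.49, adjusted p = 0.00144, all edgeR). Of all genes 6.26% were higher and 6.36% lower. Between lateral and medial hypothalamic spots 1 of 9 passed, Pcsk1, higher in lateral spots at 82.9 and 49.9 CPM against 33.6 and 21.0 CPM (log2 difference 1.20, SE 0.23, adjusted p = 0.00131, edgeR). Of all genes 0.481% were higher in lateral spots and 0.349% lower. None of 7 passed between dentate sides, where Cpe differed by -0.11 (adjusted p = 0.998).

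Of the 3 other precursors, Pomc and Pnoc passed the filter and Tac4 had 1 UMI in each section. Pnoc, which gives nociceptin, was higher in hypothalamic than thalamic spots (log2 difference 1.03, adjusted p = 3.74e-09) and than cortical spots (2.31, adjusted p = 5.24e-15), but lower in habenular than thalamic spots (-1.90, adjusted p = 4.73e-08, all edgeR). It was also higher in hippocampal than cortical spots (0.54, adjusted p = 0.0415), in dentate than CA spots (0.86, adjusted p = 0.0404) and in lateral than medial hypothalamic spots (0.92, adjusted p = 0.0118). Between dentate sides it differed by -0.09 (adjusted p = 1). Pomc, which gives beta-endorphin, was higher in hypothalamic than thalamic spots (2.50, with 3.33 and 1.23 in the single mice) and than cortical spots (1.76, with 2.11 and 0.93), in habenular than thalamic spots (1.14) and in medial than lateral spots (-1.75, adjusted p = 7.88e-05). The hypothalamic differences were larger in mouse 1, and the last rests on it: medial Pomc stood at 84.6 CPM there and 14.0 CPM in mouse 2, and the difference was -2.22 and -0.11.

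Likeness of pattern was measured by Pearson's r of log2(CPM + 1) over the 20 fine regions, averaged over the mice, among 10423 genes; the regions share libraries, so no p is given. Nts was most like Ecel1 (0.91), Pmch (0.91), Dlk1 (0.90), Arhgap36 (0.90) and Hcrt (0.89). Gal was most like Pmch (0.90), AW551984 (0.87), Dlk1 (0.86), Hcrt (0.84) and Parpbp (0.84). Trh was most like Pmch (0.81), Sparc (0.81), Six3 (0.79), Paqr6 (0.79) and Ecel1 (0.78). For Tac2 the list was Sncg (0.83), Prpsap2 (0.82), Chrna3 (0.81), Zfp467 (0.81) and Syt6 (0.80), and for Tac1 it was Cartpt (0.85), Lbhd2 (0.75), Pomc (0.74), Ahi1 (0.74) and Nbdy (0.74). Pdyn was most like Fxyd6 (0.82), Ahi1 (0.79), Pnck (0.78) and Nenf (0.76), among the genes reported here. Penk was most like Naca (0.79) and 4 ribosomal protein genes, Rps19, Rpl27, Rpl14 and Rpl35a (0.77 to 0.79). Pmch, Hcrt, Ecel1, Six3, Cartpt and Chrna3 were among the genes that defined regions.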

How the data were processed

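The authors deposited whole UMI counts per gene and spot; the file headers name Space Ranger 1.3.1 and the submitters' processing notes name mm10, and no label names other settings. The members and lists were chosen with earlier results of these data known. Spots with at least 500 UMIs were used (3712 and 3548). Each took the best of 20 marker sets, scored on the spot with up to 6 neighbours (minimum score 0.75, patches of at least 8 spots); 493 and 389 spots stayed unassigned. The bounds of the ventrolateral corner were chosen after the data were seen. Of the spot barcodes, 3366 occur in both sections, since arrays share their design. UMIs were summed per mouse and region and tested in R 4.3.3 with edgeR 4.0.16 (TMM, filterByExpr, mouse as a block); the mouse, not the spot, is the replicate. The block was the section that both regions come from. The labels give the 2 mice as separate samples. The block takes out their mean difference, so the p-values do not measure spread between the mice. They measure how unevenly regions differ in the 2 mice, with 4, 19 and 1 residual degrees of freedom in the broad, fine and side fits. That spread is pooled over genes, with 37.8, 53.3 and 872 prior degrees of freedom. Each comparison was refitted with DESeq2 1.42.0, no filter, no block, thinning, Leiden clusters (scanpy 1.11.5) and a stricter score (except for the dentate sides), and with each mouse alone. The 3 lists were 14 receptors, 9 processing and breakdown genes and 3 other precursors; up to 3 genes a list and comparison with the largest change past the threshold were named. On simulated data with 200 genes changed by 2-fold, the fit recovered 92.5% for hypothalamic against thalamic spots (12974 genes), 88.0% for dentate granule against CA pyramidal spots (11978 genes) and 50.0% for the dentate sides (8459 genes). False calls made up 3.65%, 5.38% and 0% of the calls. The changed genes were drawn above a minimum expected count, with a single common dispersion and no other region differences. Recovery of sparser genes was not measured. Precision follows depth: hypothalamic spots summed to 2866053 and 3566010 UMIs, where 1 UMI is worth under 1 CPM. Intervals are exact Poisson intervals of 95%. One gene among those most alike in pattern is not reported here.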

Additional observations from a re-analysis of the deposited data

How the results depend on the processing

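Of 46 tests of a precursor in a comparison, 24 passed. Of these, 20 passed under every alternative that gave an adjusted p, and 4 were lost under some. The share of all genes called differed widely, from 24.1% higher and 24.6% lower (hypothalamic against thalamic) to 0.072% and 0.048% (dentate sides). The 24 include the calls set aside above as no support. The 20 include Trh in lateral against medial spots, which had no adjusted p in DESeq2. Of the 22 that did not pass, 3 passed under some. The replicate block is the mouse, since both regions of a contrast come from its section. Genes called in hippocampal against cortical spots numbered 3173, with 1656 in DESeq2 and 1842 with no replicate block; precursors called rose from 0 to 1 with no count filter and to 1 with clusters (Tac2 in each). In dentate against CA spots 1625 genes became 972 with no replicate block and 998 after thinning. In lateral against medial hypothalamic spots 107 genes became 27 in DESeq2, 10 with no replicate block, 351 with clusters and 558 with the corner spots kept in the hypothalamus, an alternative chosen after seeing the data; the 4 precursors called became 0 in DESeq2 and 1 with no replicate block. With the corner kept, Penk passed (log2 difference -0.83, adjusted p = 7.57e-05, edgeR) and Gal did not (-0.20, adjusted p = 0.577). Between dentate sides 10 genes became 3 in DESeq2, 3 with no replicate block, 6 after thinning and 3 with clusters. Leaving out a mouse, Tac2 in dentate against CA spots ranged from -0.079 to 1.69 and Gal in lateral against medial spots from -1.73 to 0.061, each reversed without mouse 2. The cause of these changes was not tested. As a mean over spots rather than of summed UMIs, habenular Tac2 stood at 462 in place of 576 CPM. Depth limits Trh, with 253 and 560 UMIs in a section.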

Other observations

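The ventrolateral corner, which belonged to no comparison, held high levels of several precursors. Penk stood at 140 CPM in mouse 1 and 240 CPM in mouse 2 there, and Tac1 at 229 and 172 CPM; both means were the highest of the 20 fine regions. Nts stood at 245 and 135 CPM, Pdyn at 82.4 and 42.2 CPM and Tac2 at 93.9 and 41.1 CPM. Trh had 1 and 10 UMIs there. The corner held 64 spots in mouse 1 and 162 in mouse 2, so the sections reach it unequally.

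The precursors also differed in how few spots carried them. The richest 1% of spots (38 and 36) held 57.5% and 49.5% of all Tac2 UMIs, 49.7% and 30.5% of those of Nts, and 22.0% and 17.3% of those of Penk.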
